A study of Rattus norvegicus with 12 samples.

Results

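The ADAM and ADAMTS metalloproteases of rat fibroblasts were examined here, as 47 probe sets of 34 genes among the 31042 probe sets tested. A probe set was a member when the array annotation gives it a single gene symbol of the form Adam, Adamts or Adamtsl followed by a number. This gave 27 probe sets of 18 membrane ADAM genes, 15 probe sets of 12 secreted ADAMTS genes and 5 probe sets of 4 ADAMTS-like genes. Gene names alone decided which probe sets were members, but the family was chosen with earlier results of these data known.

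RNA came from F111, a fibroblast line of the Fischer rat that the paper calls normal, in which the study followed cells that survive loss of adhesion. The paper also reports that F111 cells were aneuploid. It saw a translocation between copies of chromosome 2 in few A16 cells and in all colony cells. The part of this karyotype difference in the RNA levels was not tested. A16 cells were F111 cells kept adherent on plastic for 16 h and served as the control. Colony cells came from NA16 cells, which are F111 cells that survived 16 h in suspension, after 7 days in soft agar, and were then released from it and briefly allowed to adhere before RNA was taken. Both kinds of cells were grown in Dulbecco's medium with fetal calf serum, and Colony cells are thus a pool of clones that survived selection rather than a treated copy of the A16 cells. Each group had 3 arrays, from biological replicate 1, technical replicate 2 and biological replicate 2. Arrays are listed below in this order. The technical array was averaged with biological replicate 1 of its group on the log2 scale, so that n = 2 cultures per group. Nothing in the labels says more about how separate these cultures were. The p-values from limma combine the spread between them with a spread pooled over all probe sets (prior degrees of freedom 4.76). In 1 label field of Colony biological replicate 2 the source is given as tumour formation while its other fields name the colony, and results that change without it are marked.

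ADAMs are proteases anchored in the cell membrane. Many of them cut the outer part of other membrane proteins, such as growth factor precursors, cadherins and Notch, and so release or silence them. ADAMTS proteases are secreted, bind to the matrix through thrombospondin repeats and cut proteoglycans, procollagens and other matrix proteins. ADAMTS-like proteins have the repeats but no protease domain, and several bind fibrillin. Most of these enzymes are made as inactive precursors that proprotein convertases such as furin activate, and TIMP proteins inhibit many of them.

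The genes that rose by their brightest probe set were Adam8, Adam15 and Adamts7, and their start regions are shown because these are the members that moved up together. Sequences are from RefSeq, run 5′ to 3′ in the direction of the gene, and cover 250 bases before and 50 bases after the annotated start. In all, 19 of the 34 genes matched an entry in that table, which has none for Adam9. The lines below give these 3 windows, with matches of any searched motif in capitals.
Adam8 (GRCr8, chr1:204218273-204218572, minus strand): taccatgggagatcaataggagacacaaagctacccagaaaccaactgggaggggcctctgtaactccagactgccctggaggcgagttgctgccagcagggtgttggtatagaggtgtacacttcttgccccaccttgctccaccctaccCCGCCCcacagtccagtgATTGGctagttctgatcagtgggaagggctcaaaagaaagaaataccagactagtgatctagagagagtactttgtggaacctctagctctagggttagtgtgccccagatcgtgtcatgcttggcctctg
Adam15 (GRCr8, chr2:177062800-177063099, minus strand): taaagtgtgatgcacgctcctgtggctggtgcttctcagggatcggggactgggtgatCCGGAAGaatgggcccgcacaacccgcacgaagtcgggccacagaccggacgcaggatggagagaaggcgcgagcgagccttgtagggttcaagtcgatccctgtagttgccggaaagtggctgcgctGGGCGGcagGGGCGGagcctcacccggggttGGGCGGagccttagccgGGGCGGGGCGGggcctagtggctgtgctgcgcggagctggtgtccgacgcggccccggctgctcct
Adamts7 (GRCr8, chr8:99584279-99584578, plus strand): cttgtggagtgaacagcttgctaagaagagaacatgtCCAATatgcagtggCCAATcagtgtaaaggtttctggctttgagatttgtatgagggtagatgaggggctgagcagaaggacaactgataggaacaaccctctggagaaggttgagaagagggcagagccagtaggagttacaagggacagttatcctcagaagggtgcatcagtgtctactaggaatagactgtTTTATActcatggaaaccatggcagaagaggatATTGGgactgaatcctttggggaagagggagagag

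The 6 motifs searched on both strands were the Sp1 box GGGCGG, the CCAAT box CCAAT, the TATA box TATAAA, the Ets core CCGGAAG, the AP-1 site (TGACTCA or TGAGTCA) and the hypoxia response core ACGTG. Of 33469 windows of this length in the table, 33.1% hold an Sp1 box, 37.5% a CCAAT box, 14.2% a TATA box and 8.75% an Ets core. The AP-1 site is in 4.63% and the hypoxia response core in 19.3% of them. The Adam15 window has 5 Sp1 boxes, of which the last 2 share a base, and 1 Ets core. The Adam8 window has 1 Sp1 box and 1 CCAAT box, and the Adamts7 window has 3 CCAAT boxes, 1 TATA box and no Sp1 box. No motif is thus common to all 3 windows, and a match is a description of letters, not evidence of binding.

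Over all probe sets, arrays within a group differed with an SD of 0.17 to 0.33 on the log2 scale, and an A16 array and a Colony array with 0.67 to 0.76. The median RMA intensity was 97.6 to 100.9. Fibroblast markers such as Vim and S100a4 lay above the 99th percentile of probe sets in both groups, while Dcn and Lum were dim. Of 11 such markers 3 fell (Col1a1, Col3a1 and Thy1) and 0 rose, which is 27.3% called, against 9.12% of all genes. Under the fold threshold, Col1a2 (log2 FC -0.61, limma adjusted p = 0.0142) and Lum (-0.78, 0.00663) were lower and Pdgfra (0.55, 0.0232) higher. Markers of endothelium did not pass in 4 of 4 genes, and among 6 markers of epithelium Krt8 rose (log2 FC 2.13). Cdh1 had a log2 FC of 0.74 (limma adjusted p = 0.00979, under the fold threshold) and was dim, and Epcam lay at the 10.4 percentile in A16 and the 6.39 percentile in Colony cells.

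A probe set was called when its Benjamini-Hochberg adjusted p from limma was under 0.05 and its fold change over 2, the fold used by the study. By this rule 7 of the 47 member probe sets were called (14.9%), 3 higher and 4 lower in Colony cells. All probe sets gave 9.81%, and the 20826 with 1 gene symbol, as members have, gave 11.2% (814 higher and 1519 lower). In the higher direction all probe sets gave 4.0% and in the lower 5.81%. Each called probe set belongs to a different gene, so that 7 of 34 member genes had any called probe set, against 14.1% of all genes. By the brightest probe set of each gene, 4 of 34 genes were called (Adam8, Adam15 and Adamts7 higher, Adam9 lower), against 9.12% of all 14217 genes, of which 4.36% were higher and 4.75% lower. With the adjusted p alone, 11 member probe sets passed, against 22.7% of all probe sets, and 7 member genes, against 23.7% of all genes. The share of called members was thus near that of all features. The median log2 FC was 0.09 over the 47 member probe sets and 0.05 over all probe sets, with members from -1.84 to 2.12. Because bulk RNA was measured, fewer cells that express a gene and less of its RNA per cell cannot be told apart. In 20 of 47 member probe sets all Colony arrays lay on one side of all A16 arrays, against 45.9% of all probe sets, and by brightest probe set in 14 of 34 genes, against 47.6% of all genes.

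**Figure D1:**
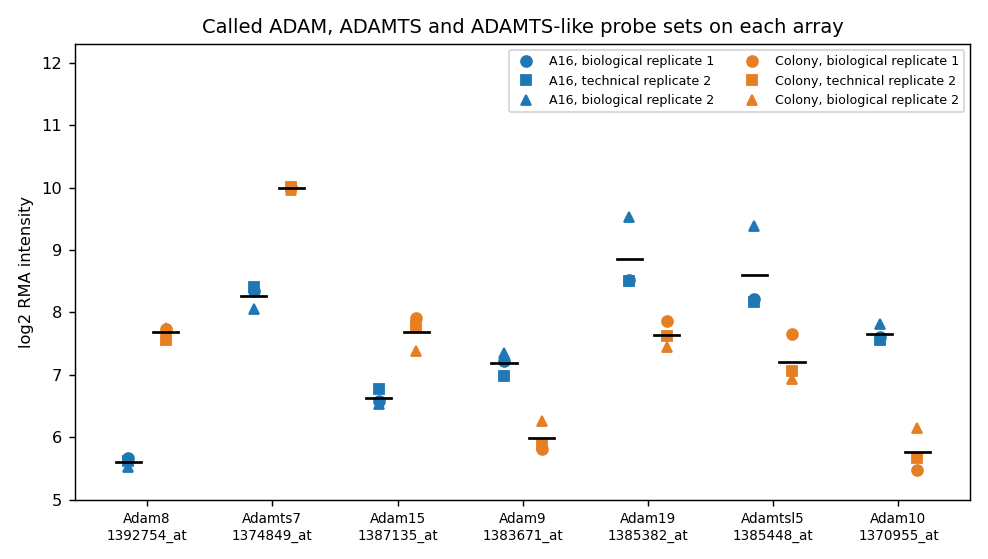
Log2 RMA intensity (vertical axis) of the 7 called member probe sets (horizontal axis) on each of the 6 arrays, blue for A16 and orange for Colony, with the array as the symbol and bars at the mean of 3 arrays. The groups do not overlap in any of the 7, which were chosen by their call on these arrays, where 45.9% of all probe sets do not overlap. Biological replicate 2 of A16 (blue triangle) is the highest A16 array for Adam9, Adam10, Adam19 and Adamtsl5, and stands farthest above for Adam19 and Adamtsl5.

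Adam8 showed the largest rise of the family. It encodes a membrane protease known best from myeloid cells and from several tumours, and it activates itself without furin. Its brighter probe set had RMA intensities of 51.0, 48.9 and 45.7 in A16 and 214, 189 and 216 in Colony cells. All Colony arrays were thus about equally high and far above the A16 arrays. In limma, where SE is the standard error of the log2 FC, the log2 RMA intensity went from 5.58 ± 0.09 to 7.70 ± 0.07 (SD, n = 2 cultures), an FC value of 4.36 (log2 FC 2.12 with an SE of 0.13; limma adjusted p = 0.000119). The A16 level was dim, at the 31.9 percentile, which leaves the size of the rise uncertain, and PLIER gave FC values of 4.48 with 16 added before the log2 and 5.76 with nothing added. The second, dimmer probe set of Adam8 did not pass, with a log2 FC of 0.27 (95% interval -0.06 to 0.59, adjusted p = 0.233 from limma), and its arrays overlapped.

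Since Adam8 is a gene of myeloid cells, leukocyte markers stand beside it. Of 8 such markers measured, Csf1r, the receptor of the macrophage growth factor, rose (log2 FC 4.01), 0 fell and 7 did not pass. That is 12.5% called, against 9.12% of all genes. Ptprc, which marks all leukocytes, lay at the 23.1 percentile in A16 and the 24.7 percentile in Colony cells, and Itgam at 36.8 and 38.3. The summed RMA intensity of the 8 genes was 1243 to 1436 on A16 arrays and 1637 to 1721 on Colony arrays. Without Csf1r the sum of the other 7 was 1208 to 1391 on A16 arrays and 897 to 1099 on Colony arrays. Cd14, the brightest of them, had 1020, 1002 and 891 in A16 and 534, 664 and 697 in Colony cells (log2 FC -0.56, limma adjusted p = 0.0366, under the fold threshold). Of the 8 markers, 6 had a positive log2 FC, among them Lyz2 (0.34, limma adjusted p = 0.237), and only Cd14 and Cd74 had a negative one. The part of such cells in the rise of Adam8 was not tested.

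Adam15, whose disintegrin domain can bind integrins, rose to just past the fold threshold. Its RMA intensities were 96.1, 109 and 92.4 in A16 cells and 239, 221 and 166 in Colony cells. The groups did not overlap, and biological replicate 2 was the lowest of the Colony arrays. The log2 RMA intensity went from 6.60 ± 0.10 to 7.61 ± 0.33 (SD, n = 2), an FC value of 2.01 (log2 FC 1.01 with an SE of 0.18; limma adjusted p = 0.00911). Small changes in processing took it below a fold of 2 with adjusted p-values that stayed under 0.05: the log2 FC was 0.93 with PLIER as log2(value + 16), 0.99 with arrays scaled on their brightest probe sets, 0.93 when A16 replicate 2 was left out and 0.77 when Colony replicate 1 was.

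Adam9, a widely expressed sheddase of growth factor precursors and other surface proteins, fell. Its single probe set had RMA intensities of 149, 126 and 163 in A16 and 55.8, 58.7 and 76.5 in Colony cells. Every Colony array was well below the lowest A16 array. The log2 RMA intensity went from 7.22 ± 0.18 to 6.05 ± 0.30 (SD, n = 2), an FC value of -2.26, where a minus sign marks the inverse of a ratio below 1 (log2 FC -1.17 with an SE of 0.18; limma adjusted p = 0.00485). It was -0.97, under the fold threshold, when Colony replicate 1 was left out.

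Adam10 and Adam17 are the main sheddases of most cells. Adam10 starts the release of Notch and cuts N-cadherin, and Adam17 frees TNF and many ligands of the EGF receptor. The probe sets of Adam10 disagreed although the annotation names the same source sequence for both. The brighter one had 345, 354 and 408 in A16 and 303, 358 and 343 in Colony cells, which overlap. Its log2 FC was -0.17 (95% interval -0.50 to 0.17, adjusted p = 0.466 from limma). The dimmer one had 194, 188 and 226 in A16 and 44.4, 50.7 and 71.2 in Colony cells. It was called lower with an FC value of -3.57 (log2 FC -1.84 with an SE of 0.21; limma adjusted p = 0.00154), the largest fall among the members. Whether the RNA of Adam10 as a whole or only the part under this probe set changed cannot be told apart from these values. The mean of both probe sets had a log2 FC of -1.002 (adjusted p = 0.00211 from limma).

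Adam17 did not pass. It had RMA intensities of 1407, 1513 and 1440 in A16 cells and 1755, 1934 and 1943 in Colony cells. All Colony arrays were above all A16 arrays, but the difference was small, with a log2 FC of 0.38 (95% interval 0.08 to 0.69, adjusted p = 0.0756 from limma). The whole interval lies below a fold change of 2.

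Adam19, known as meltrin beta and needed for the heart valves of the mouse embryo, had 4 probe sets, all with a negative log2 FC. The brightest had 1915, 2108 and 1768 in A16 and 1553, 1482 and 1280 in Colony cells. It did not pass, with a log2 FC of -0.44 (95% interval -0.79 to -0.08, adjusted p = 0.0865 from limma). The next in brightness was called lower, from 367, 363 and 737 in A16 to 233, 197 and 175 in Colony cells (log2 FC -1.42 with an SE of 0.31; limma adjusted p = 0.0184). Its A16 replicate 2 was far above the other A16 arrays. Without that replicate the log2 FC was -0.92, and without Colony replicate 2 the adjusted p was 0.0759. The remaining probe sets of Adam19 gave -0.44 and -0.67. Over the mean of all 4 the log2 FC was -0.74 (adjusted p = 0.00940 from limma), under the fold threshold. Adam33, a gene of mesenchymal cells that has been linked to asthma, had a log2 FC of 0.29 (adjusted p = 0.160).

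**Figure D2:**
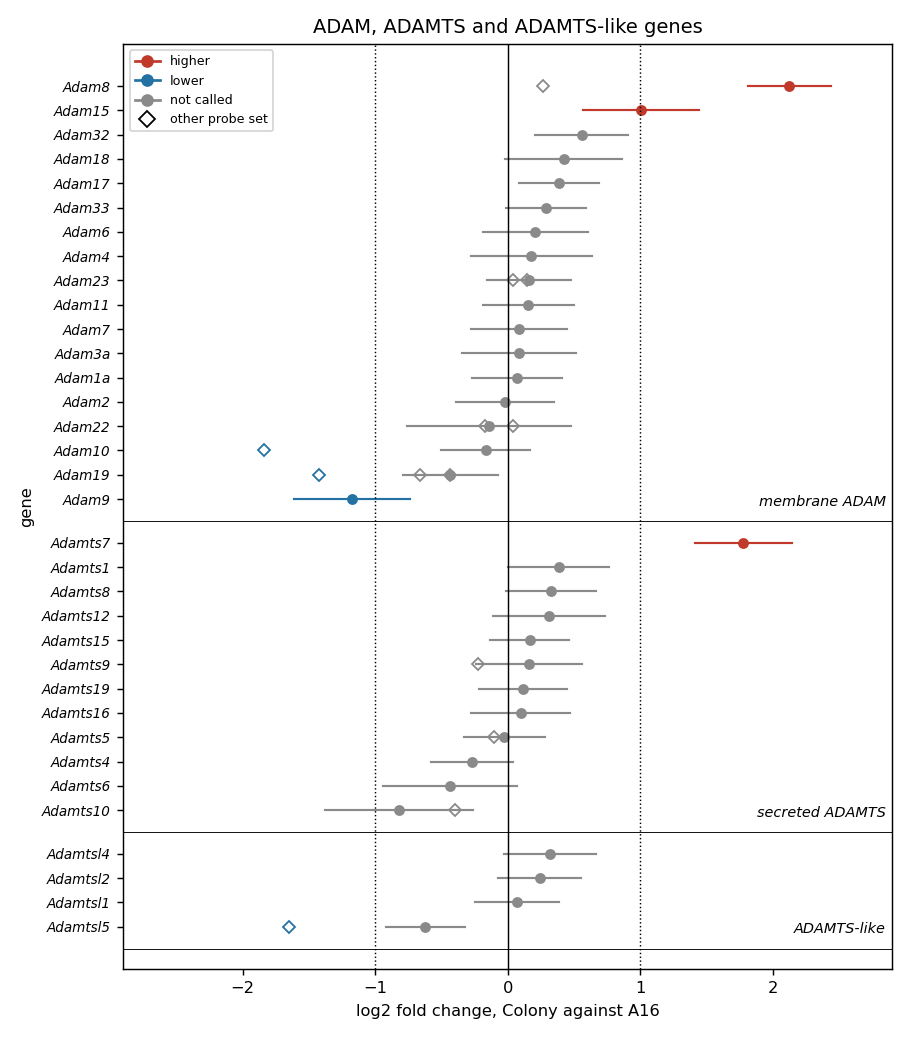
Log2 fold change of Colony against A16 cells (horizontal axis) for the 34 member genes (vertical axis), by class. Filled points are the brightest probe set with its 95% interval from limma, diamonds are other probe sets of the gene, red was called higher, blue lower and grey not called, and dotted lines stand at a 2-fold change. Adam8, Adamts7 and Adam15 stand on the right and Adam9 on the left, and called diamonds of Adam10, Adam19 and Adamtsl5 lie apart from the brightest probe set of the same gene.

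The membrane ADAMs, with 27 of the 47 member probe sets, gave 5 of the 7 called ones, 2 higher and 3 lower. This is 18.5% of the probe sets of the class, against 9.81% of all probe sets and 11.2% of those with 1 gene symbol. The 5 called probe sets belong to Adam8, Adam9, Adam10, Adam15 and Adam19, all of which are active proteases of tissues outside the reproductive tract. Of the 7 measured genes of that kind, which include Adam17 and Adam33, 3 were called by the brightest probe set and 5 by any, where all genes gave 9.12% and 14.1%. This grouping was made after the values were seen, and nothing is read from these counts. Adam11, Adam22 and Adam23, which have lost protease activity and serve neurons as receptors of LGI proteins, had no called probe set among their 7. By the brightest probe set the log2 FC was 0.16, -0.14 and 0.16, and the 95% intervals lay within -0.76 to 0.50. PLIER as log2(value + 16) separated the groups for Adam11 (log2 FC 0.49) and Adam22 (log2 FC -0.78), whose RMA arrays overlapped.

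ADAMs of testis and epididymis, which take part in the making of sperm and its contact with the egg, were measured for 8 genes, namely Adam1a, Adam2, Adam3a, Adam4, Adam6, Adam7, Adam18 and Adam32. None of the 8 was called by limma, against 9.12% of all genes. Of the 8, 1 had an unadjusted p under 0.05, against 35.3% of all genes. That gene was Adam32, with RMA intensities of 50.6, 40.6 and 42.8 in A16 and 60.2, 57.8 and 71.2 in Colony cells (log2 FC 0.56, adjusted p = 0.0362 from limma, under the fold threshold). With PLIER as log2(value + 16) its log2 FC was 0.25 and the arrays overlapped. The log2 FC values of the 8 ran from -0.02 to 0.56.

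Among the secreted ADAMTS proteases 1 of 12 genes, Adamts7, rose, 0 fell and 11 did not pass (8.33% called, against 9.12% of all genes). At an unadjusted p under 0.05, 2 were higher and 1 lower, where 19.4% of all genes were higher and 15.9% lower. Adamts7 cuts cartilage oligomeric matrix protein (COMP) and is known from vascular smooth muscle and arthritic cartilage. Its RMA intensities were 324, 338 and 265 in A16 cells and 1033, 1031 and 998 in Colony cells. The Colony arrays lay within a narrow band, well above each A16 array. The log2 RMA intensity went from 8.21 ± 0.23 to 9.99 ± 0.03 (SD, n = 2), an FC value of 3.43 (log2 FC 1.78 with an SE of 0.15; limma adjusted p = 0.000455), and the other summary gave an FC value of 3.75 with PLIER as log2(value + 16). Unlike Adam8, this gene was not dim in either group, at the 67.0 percentile in A16 and the 86.7 percentile in Colony cells. Adamts12, the closest relative of Adamts7 and also a protease of COMP, had 70.9, 61.9 and 53.9 in A16 and 88.6, 79.1 and 65.7 in Colony cells. Its arrays overlapped, with a log2 FC of 0.31 (95% interval -0.11 to 0.73, adjusted p = 0.279 from limma).

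The proteoglycan-cutting members Adamts1, Adamts4, Adamts5, Adamts8, Adamts9 and Adamts15, several of which are known as aggrecanases, did not pass. Adamts1 had RMA intensities of 178, 170 and 173 in A16 and 185, 214 and 256 in Colony cells, a log2 FC of 0.38 (adjusted p = 0.145 from limma). Adamts4 had 250, 207 and 241 in A16 and 204, 196 and 188 in Colony cells, a log2 FC of -0.27 (adjusted p = 0.197). Neither gene overlapped between the groups on RMA arrays, as was so for 47.6% of all genes, one leaning up and the other down. On PLIER arrays the groups overlapped for Adamts1 and not for Adamts4. By the brightest probe set the log2 FC was -0.03 for Adamts5, 0.32 for Adamts8, 0.16 for Adamts9 and 0.16 for Adamts15, and each stayed within an interval of -0.33 to 0.66.

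Adamts10, which binds fibrillin and is mutated in Weill-Marchesani syndrome, had the lowest log2 FC of the secreted class. Its brighter probe set had 671, 678 and 699 in A16 and 517, 484 and 303 in Colony cells. The A16 arrays were alike, and Colony replicate 2 was the lowest array. The log2 FC was -0.82 (SE 0.23; limma adjusted p = 0.0472), under the fold threshold. Without Colony replicate 1, which leaves the array with conflicting labels as the only Colony culture, the log2 FC was -1.18. Without Colony replicate 2 only the Colony arrays at 517 and 484 remain, which lie nearer to the A16 arrays. The other probe set had a log2 FC of -0.40 (adjusted p = 0.165). Adamts6, its closest relative, had a log2 FC of -0.44 (adjusted p = 0.207). Adamts16 and Adamts19 were dim, with log2 FC values of 0.10 and 0.11. Adam12 and the procollagen proteases Adamts2, Adamts3 and Adamts14 were not analysed here.

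Among the ADAMTS-like genes, 0 of 4 were called by the brightest probe set, against 9.12% of all genes. At an unadjusted p under 0.05 there was 1 gene, against 35.3% of all genes. That gene was Adamtsl5, a fibrillin-binding protein, whose probe sets both leaned down. The brighter had 1825, 2116 and 2013 in A16 and 1428, 1192 and 1281 in Colony cells. Its log2 FC was -0.62 (SE 0.13; limma adjusted p = 0.0135), which is an FC value of -1.54 and under the threshold. The dimmer had 298, 287 and 669 in A16 and 201, 133 and 122 in Colony cells, and it was called with a log2 FC of -1.65 (SE 0.37, adjusted p = 0.0193). As for Adam19, A16 replicate 2 stood far above the other A16 arrays there, and without Colony replicate 2 the adjusted p was 0.0808. Adamtsl4, a microfibril protein whose loss displaces the lens, had 588, 667 and 685 in A16 and 924, 858 and 749 in Colony cells. All its Colony arrays were higher, with a log2 FC of 0.32 that did not pass (95% interval -0.03 to 0.67, adjusted p = 0.182). Adamtsl1 had a log2 FC of 0.07 (adjusted p = 0.779). For Adamtsl2, a regulator of microfibrils, the summaries pointed in opposite directions. The log2 FC was 0.24 (adjusted p = 0.259) by RMA and -0.58 (adjusted p = 0.0302) by PLIER as log2(value + 16), so no direction is given.

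**Figure D3:**
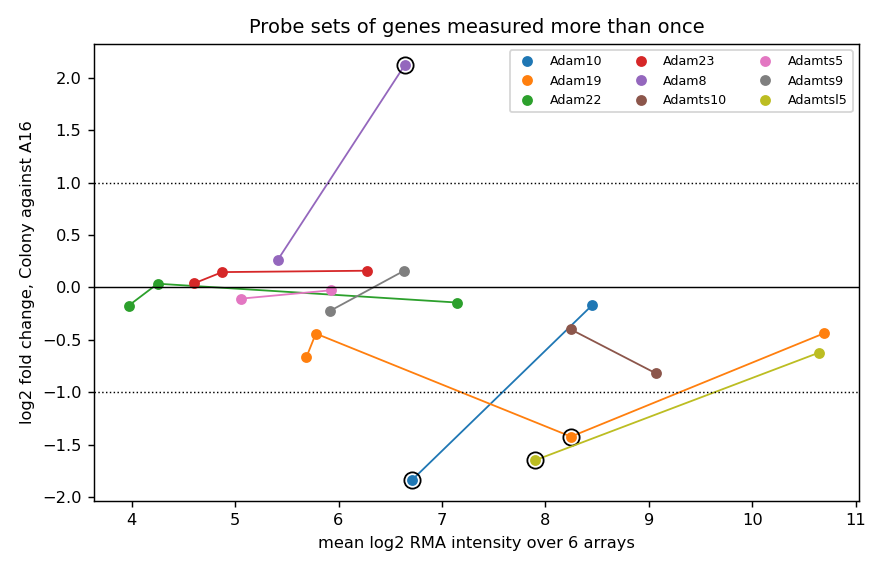
Log2 fold change of Colony against A16 cells (vertical axis) against the mean log2 RMA intensity over 6 arrays (horizontal axis) for the 9 member genes with more than 1 probe set, with the probe sets of a gene joined by a line. Black rings mark called probe sets and dotted lines a fold change of 2; for Adam8, Adam10, Adam19 and Adamtsl5, 1 probe set was called and the others were not.

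Of the 9 member genes with several probe sets, 4 had 1 called probe set and at least 1 that was not called, and 5 had none called. The log2 FC values of a gene's probe sets spread by 1.86 for Adam8, 1.67 for Adam10, 1.03 for Adamtsl5 and 0.99 for Adam19, and by 0.42 or less for the other 5. Averaged over all probe sets, Adam8 (log2 FC 1.19), Adam10 (log2 FC -1.002) and Adamtsl5 (log2 FC -1.13) passed the rule. In 12 of the 47 probe sets the sign of the log2 FC differed between RMA and PLIER as log2(value + 16). None of these 12 had an adjusted p under 0.05 by RMA, and 7 of them were dim in both groups, below the 40th percentile.

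The regulators of these proteases, a list of inhibitors, partners and activating convertases, were measured for 18 genes. Of these, 2 rose, 2 fell and 14 did not pass by the brightest probe set (22.2% called, against 9.12% of all genes). By any probe set 5 of the 18 had a call, against 14.1% of all genes. The median log2 FC was -0.07, against 0.05 over all 14217 genes. Pcsk6, the convertase PACE4 that removes prodomains, showed the largest change. It fell from RMA intensities of 461, 490 and 501 in A16 to 35.9, 38.7 and 39.2 in Colony cells, an FC value of -12.8 (log2 FC -3.67 with an SE of 0.13; limma adjusted p = 1.56e-05). The Colony level lay at the 23.2 percentile, which leaves the size of the fall uncertain. Furin itself varied widely within both groups, with 616, 826 and 1409 in A16 and 1184, 773 and 475 in Colony cells, and did not pass (log2 FC -0.57, 95% interval -1.53 to 0.39).

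Reck, a membrane-anchored inhibitor of metalloproteases that also restrains Adam10, rose. It had 603, 661 and 491 in A16 and 1163, 1333 and 1430 in Colony cells, an FC value of 2.40 (log2 FC 1.26 with an SE of 0.17; limma adjusted p = 0.00270). Sh3d19, an adaptor that binds the cytoplasmic tails of ADAMs, rose 3.23-fold (log2 FC 1.69, SE 0.13, adjusted p = 0.000260). Its arrays stood at 428, 451 and 414 in A16 and 1284, 1422 and 1403 in Colony cells, far apart.

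None of the secreted inhibitors passed both the p and the fold threshold by its brightest probe set. Timp1 had a log2 FC of -0.57 (adjusted p = 0.0220 from limma, FC value -1.49) and the brightest probe sets of Timp2 and Timp3, the latter the main inhibitor of Adam17 and the aggrecanases, had -0.08 and -0.19 (adjusted p = 0.734 and 0.393). A dimmer probe set of Timp2 had a log2 FC of -1.22 and did not pass (adjusted p = 0.0786). Rhbdf1 and Rhbdf2 encode the iRhoms that carry Adam17 to the cell surface. Rhbdf2 fell from 160, 191 and 226 in A16 to 74.2, 100.1 and 110 in Colony cells, an FC value of -2.04 (log2 FC -1.03 with an SE of 0.19; limma adjusted p = 0.00894). Its log2 FC was -0.95 with quantile normalization, -0.84 without A16 replicate 2 and -0.86 without Colony replicate 1, under the fold threshold. Rhbdf1 had the opposite sign and did not pass (log2 FC 0.58, 95% interval 0.17 to 0.98, adjusted p = 0.0515). Of the tetraspanins that escort Adam10, Tspan33 had 1 probe set that was called higher, from 74.6, 64.2 and 60.8 in A16 to 191, 155 and 147 in Colony cells (log2 FC 1.29, adjusted p = 0.00146). The Tspan33 probe set that was brightest over all 6 arrays had a log2 FC of -0.09 (adjusted p = 0.741). The remaining, dimmest one had 0.65 (limma adjusted p = 0.0239), under the fold threshold.

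**Figure D4:**
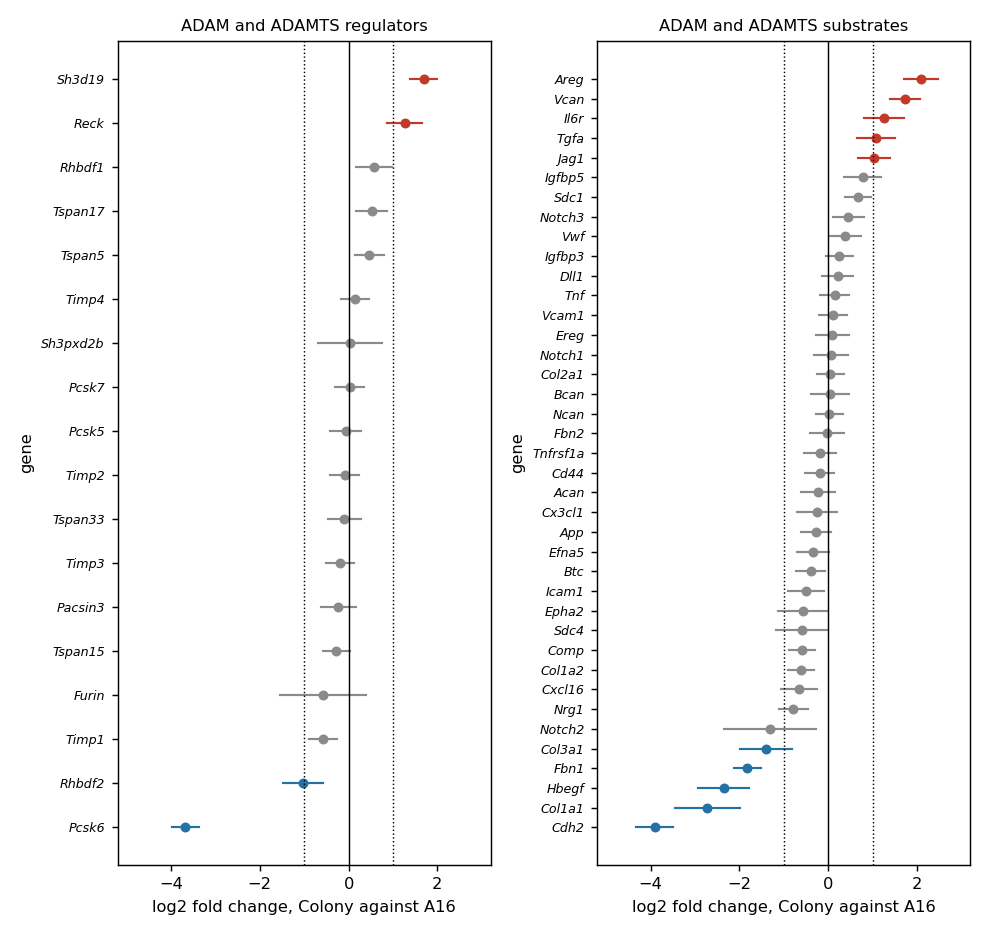
Log2 fold change of Colony against A16 cells (horizontal axes) for the brightest probe set of 18 regulators (left) and 39 substrates (right) of ADAM and ADAMTS proteases, with 95% intervals from limma. Red genes were called higher, blue lower and grey not called, and dotted lines stand at a 2-fold change; Pcsk6 and Cdh2 lie farthest to the left and Areg and Sh3d19 farthest to the right of their panels.

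A list of substrates of ADAM and ADAMTS proteases was measured for 39 genes, among them substrates of members not analysed here, such as Adamts2. By the brightest probe set 5 rose, 5 fell and 29 did not pass, with a median log2 FC of -0.19. This is 25.6% called, against 9.12% of all genes, in a list chosen with results known. By any probe set 15 of the 39 had a call, against 14.1% of all genes. A dimmer probe set alone was called lower for App, Cd44 and Col1a2 and higher for Sdc1, and for Nrg1 dimmer ones were called lower. Among matrix substrates, the proteoglycan versican (Vcan), which Adamts1, Adamts4 and Adamts5 cut, rose, with RMA intensities of 373, 459 and 367 in A16 and 1097, 1315 and 1379 in Colony cells (log2 FC 1.72, adjusted p = 0.000410 from limma). The collagen chains Col1a1 and Col3a1, whose precursors Adamts2 and its relatives trim, fell (log2 FC -2.72 and -1.40), and so did Fbn1, the fibrillin that Adamts10 and the ADAMTS-like proteins bind (log2 FC -1.82). Comp, the substrate of Adamts7, had a log2 FC of -0.59 (adjusted p = 0.0166), under the fold threshold.

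Among membrane substrates, Cdh2, the N-cadherin that Adam10 cuts, fell the most by the brightest probe set. It had 446, 522 and 664 in A16 and 31.1, 45.1 and 38.0 in Colony cells (log2 FC -3.91 with an SE of 0.18; limma adjusted p = 3.56e-05). Another probe set of Cdh2 was also called lower (log2 FC -4.47). The remaining, dimmer one in A16 did not pass (log2 FC -0.18, limma adjusted p = 0.513), so the probe sets of this gene disagreed. EGF receptor ligands that Adam17 frees went in both directions. Areg rose (log2 FC 2.08, adjusted p = 0.000278), as did Tgfa (log2 FC 1.07, adjusted p = 0.00609), and Hbegf fell (log2 FC -2.35, adjusted p = 0.000957). The interleukin 6 receptor Il6r and the Notch ligand Jag1 rose as well (log2 FC 1.26 and 1.03, adjusted p = 0.00445 and 0.00387). Several of these lay close to a fold of 2: the log2 FC of Tgfa was 0.85 without Colony replicate 2 and 0.99 with the 6 arrays as separate samples, and that of Il6r was 0.997 without A16 replicate 1. Jag1 lost its call with PLIER, at 0.90 with 16 added before the log2 and 0.99 with nothing added, and also when A16 replicate 1 (0.88) or Colony replicate 1 (0.99) was left out. Over the mean of its probe sets Vcan had 0.97. RNA levels say nothing of how much of these proteins was cut.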

How the data were processed

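For 6 Affymetrix rat arrays, 3 of A16 and 3 of Colony cells, the authors read the scans with GeneChip Operating Software and deposited RMA and PLIER summaries, made in Avadis, as linear intensity (RMA from 11.6 to 25775, PLIER from 16.0 to 14687). The release of either method is not given in the sources used here. No detection calls were used, so background is unknown, and precision is limited by the number of arrays.

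After 57 control probe sets were left out, log2 RMA intensity, with nothing added, of 31042 probe sets was tested with limma 3.58.1 (lmFit, eBayes; R 4.3.3), without a filter on dim values; log2 was taken here because the deposited values were linear where log2 values had been planned for. Figures were drawn with Python 3.11.15. Technical replicate 2 was averaged with biological replicate 1 of its group, an assignment that rests on the titles. P-values were adjusted over all 31042 probe sets, and a call also needed a fold change over 2. The fit was tested on simulated data. In the annotation 20826 tested probe sets carry 1 gene symbol, 436 several and 9780 none, and only the first kind was named.

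The text names every member gene with a called probe set, a set list of further ADAM, ADAMTS and ADAMTS-like genes, genes whose probe sets disagreed, and called regulators and substrates with 7 further regulators. Adam11, Adam22, Adam32, Adamts8, Adamts16, Adamts19, Comp, Tspan33 and values that stand beside these were added after the values were seen, as were the motifs. Members, lists and alternatives were chosen with earlier results of these data known. Same-numbered cultures deviated from their group means with a correlation of -0.15 over probe sets, so the numbers were not taken as pairs. The alternatives were PLIER, other uses of the technical arrays, a replicate block, other scalings, a dim filter, other priors, leaving out each culture, the methods' t-test and the mean over a gene's probe sets. NA16 and tumour arrays were not analysed here.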

Additional observations from a re-analysis of the deposited data

How the results depend on the processing

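A fit without 1 culture takes its spread from the other group alone and is no separate test. Of 854 recomputed values of 43 named genes or probe sets under 20 alternatives, 781 kept their direction and their side of the threshold, 48 fell below it, 6 passed it and 19 changed sign; no called value changed sign. Leaving out 1 culture gave 2 to 3 higher and 2 to 4 lower member probe sets, 2 to 3 higher and 1 lower member genes, 2 higher and 1 to 2 lower regulators, 3 to 5 higher and 5 to 6 lower substrates, and 1282 to 1328 higher and 1498 to 2318 lower among all probe sets. Without Colony replicate 2, 2 member probe sets were lower, as Adam19 and Adamtsl5 were lost, and without A16 replicate 1, 3 substrates rose. The methods' t-test called 2 higher and 2 lower member probe sets and 1 lower regulator at an unadjusted p, and 1070 higher and 1313 lower of all probe sets; after Benjamini-Hochberg it called 0 in every count, both of members and of all probe sets. Quantile normalization left 1 lower regulator. With PLIER as log2(value + 16), 2 member probe sets were higher and 4 lower, and with PLIER as log2(value) 3 were higher and 6 lower. Over the mean of all probe sets 3 member genes were lower (Adam9, Adam10 and Adamtsl5). With no fold threshold, an alternative chosen after seeing the data, 3545 probe sets were higher and 3511 lower, 7 member probe sets, 3 member genes and 9 substrates were lower, and 1 testis gene was higher.

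With the replicate block, 3 member probe sets were higher and 4 lower, as without it, and it changed no call of a named gene. Substrates called lower went from 5 to 6. With the crossed replicate block, added after seeing the data, the member counts were again 3 and 4, and 6 substrates were lower.

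The sign changes were all of values that did not pass the rule. The log2 FC by PLIER, first as log2(value + 16) and then as log2(value), was -0.34 and -0.52 for Adamtsl1, -0.58 and -0.68 for Adamtsl2, -0.60 and -0.71 for Adam23 and -0.18 and -0.25 for Adamts12. Technical arrays averaged with biological replicate 2 gave 0.00152 for Timp2 and 0.0543 for Furin, and quantile normalization gave -8e-05 for Adamtsl1 and 0.0455 for Timp2. The mean over probe sets gave -0.0306 for Adamts9 and 0.0376 for Timp3. Leaving out 1 culture gave -0.00969 to 0.147 for Adamtsl1, -0.0670 to 0.0121 for Adamts5, -0.0300 to 0.350 for Adamts9 and -0.181 to 0.0150 for Timp2. The cause of these changes was not tested. No detection calls were used, so members as dim as Adamtsl1 may lie at background.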
